A study of Mus musculus with 8 samples.

Results

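The genes of neuronal nicotinic acetylcholine receptor subunits were read in bulk RNA-seq of whole mouse brain. The 9 genes, Chrna2, Chrna3, Chrna4, Chrna5, Chrna6, Chrna7, Chrnb2, Chrnb3 and Chrnb4, were chosen by symbol alone, all 9 were found, and they hold 10 of the 34535 RefSeq transcripts and 9 of the 24343 genes in the deposited table. The 8 libraries came from 3 mice of the inbred strain C57BL/6NCrl, 56 to 62 days of age, with 3 libraries each for mice 1 and 2 and 2 libraries for mouse 3. All mice were of a single condition with no treatment or engineered allele named, so the only groups are the mice themselves. What the library numbers of a mouse stand for is not given in the sources used here, and the spread between libraries of a mouse may be technical. Values are FPKM, counts of fragments scaled by transcript length and by sequencing depth, which allow levels of different genes to be compared per length. Means are over the 3 mice, each the mean of its libraries, and are given ± the SD between mice (n = 3).

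Nicotinic receptors are pentameric ion channels that open when they bind acetylcholine or nicotine and let cations into the cell. The α4 subunit (Chrna4) with β2 (Chrnb2) forms the main high-affinity nicotine receptor of the brain, and α7 (Chrna7) forms receptors of its own with high calcium permeability. The α3 and β4 subunits are known from autonomic ganglia and the medial habenula, α5 is an accessory subunit that joins receptors of other subunits, α6 and β3 are concentrated in midbrain dopamine neurons and some visual and catecholaminergic nuclei, and α2 has a narrow distribution that includes the interpeduncular nucleus. In bulk tissue a lower level can come from fewer cells of a type or from less RNA per cell, and these cannot be told apart.

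The libraries held 1.31 to 2.02 gigabases of transcript sequence each, and 12728 to 13006 genes reached 1 FPKM. Marker transcripts of brain cells were present in all libraries, at widely differing levels. Neuronal Snap25 was between 915 and 1119 FPKM, and microglial Tmem119 between 4.47 and 7.75 FPKM. Mouse 3 stood apart from mice 1 and 2 in several whole-library measures. Its summed FPKM over all genes were 384885 and 409889, against 295541 to 345572 in mice 1 and 2. Long transcripts were low in mouse 3: across 13001 genes the deviation of a library from the mean of all libraries ran with transcript length at Spearman's rho of −0.363 and −0.574 in mouse 3 and 0.182 to 0.502 in the other 6 libraries. The summed level of 2 oligodendrocyte markers (Mbp, Mog) was 2888 to 3558 FPKM in mouse 3 and 1287 to 1410 FPKM in mice 1 and 2, and that of 3 astrocyte markers (Aqp4, Gfap, Aldh1l1) was 185 to 211 FPKM against 114 to 123 FPKM. The 3 neuronal markers (Snap25, Rbfox3, Syt1) together were at 1152 to 1281 FPKM in mouse 3 and 1352 to 1466 FPKM in mice 1 and 2.

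The 9 genes together amounted to 26.7 ± 3.57 FPKM, or 78.4 ± 18.3 in TPM, FPKM scaled so that all genes of a library have the same sum. Chrnb2 and Chrna4 held 70.9% ± 2.89 of the total, Chrna7 held 16.7% ± 2.58, and the other 6 genes together held 12.4% ± 0.654. The mean of Chrnb2 was higher than those of 76.4% of the genes in the table, that of Chrna7 than 62.0%, and that of Chrna2 than 35.5%.

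**Figure D1:**
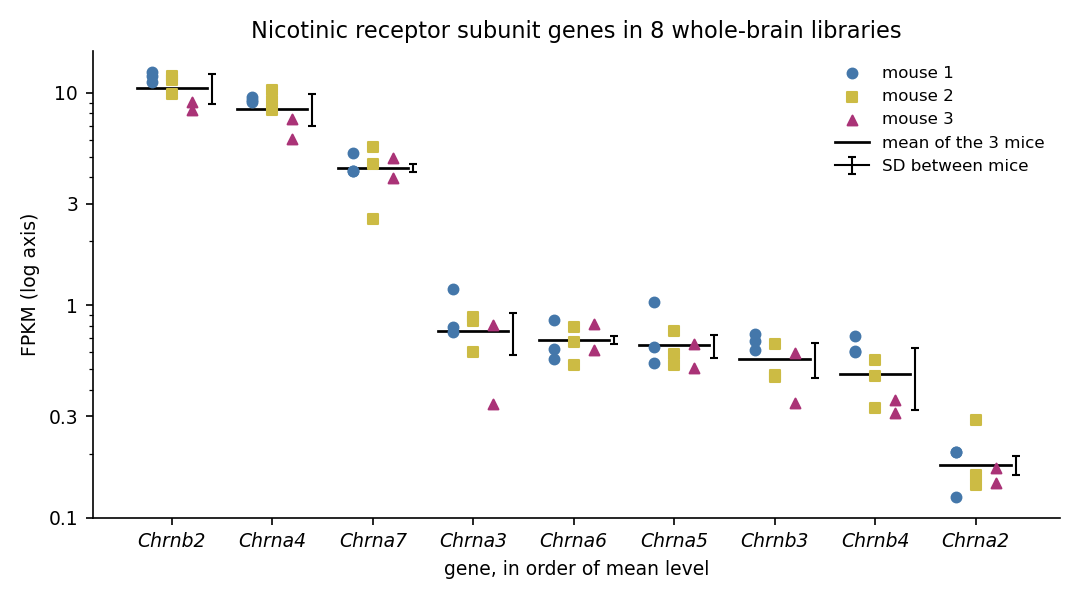
FPKM (log axis) of the 9 nicotinic subunit genes in the 8 libraries, points by mouse, with the mean of the 3 mice as a line and the SD between mice as a bar. Chrnb2, Chrna4 and Chrna7 lie between 2.55 and 12.5 FPKM in all 8 libraries, and the other 6 genes lie between 0.126 and 1.19 FPKM.

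The 3 highest genes, whose levels carry most of the total, are shown first by their promoters. Any link of these sequences to the levels was not tested. The windows run from 250 bases before to 50 bases after a gene's start, 5′ to 3′ on the gene's strand, and were taken from RefSeq on GRCm38.p6. Capitals mark GC boxes, GGGCGG read on either strand, the letters known to be bound by Sp1-type factors. All 3 genes lie on the minus strand, Chrnb2 at chr3:89764583-89764882, Chrna4 at chr2:181039128-181039427 and Chrna7 at chr7:63212477-63212776.
Chrnb2: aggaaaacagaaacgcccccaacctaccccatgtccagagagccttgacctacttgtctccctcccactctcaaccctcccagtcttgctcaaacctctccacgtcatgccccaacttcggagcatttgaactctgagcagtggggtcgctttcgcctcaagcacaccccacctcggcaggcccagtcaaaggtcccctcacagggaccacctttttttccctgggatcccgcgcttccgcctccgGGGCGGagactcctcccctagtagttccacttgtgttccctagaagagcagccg
Chrna4: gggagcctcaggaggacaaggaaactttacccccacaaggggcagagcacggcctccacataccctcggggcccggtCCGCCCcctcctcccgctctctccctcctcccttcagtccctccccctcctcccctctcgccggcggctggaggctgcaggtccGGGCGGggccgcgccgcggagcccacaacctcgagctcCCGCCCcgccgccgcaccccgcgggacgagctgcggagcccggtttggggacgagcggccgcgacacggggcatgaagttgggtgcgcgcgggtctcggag
Chrna7: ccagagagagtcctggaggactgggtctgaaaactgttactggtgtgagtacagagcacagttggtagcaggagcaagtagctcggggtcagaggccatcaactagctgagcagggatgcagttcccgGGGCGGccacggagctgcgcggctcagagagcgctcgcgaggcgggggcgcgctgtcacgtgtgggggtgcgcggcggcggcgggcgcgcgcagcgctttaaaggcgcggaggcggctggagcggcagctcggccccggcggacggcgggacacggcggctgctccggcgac

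The Chrna4 window held 3 GC boxes, and the Chrnb2 and Chrna7 windows held 1 each. Of all 32851 windows of 300 bases in the RefSeq table, 35.7% held at least 1. The GC content was 74.3% for Chrna4, 70% for Chrna7 and 59% for Chrnb2, with a median of 52.7% over all windows. A TATA box, TATAAA on either strand, was in none of the 7 windows found for 6 of the 9 genes, and was in 13.6% of all windows. The E-box CACGTG was in the Chrna7 window and in no other of the 7, and in 7.15% of all windows. The Chrna3 window held 1 GC box, the 2 windows of Chrna5 held 0 and 4, and that of Chrnb4 held 0.

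Chrnb2, the β subunit of the high-affinity receptor, spans 89753448 to 89764632 of chromosome 3 (minus strand, mm10) with 1 transcript of 5384 nucleotides (NM_009602). It was at 11.3, 12.0 and 12.5 FPKM in the libraries of mouse 1, at 9.87, 11.4 and 12.0 FPKM in those of mouse 2, and at 9.04 and 8.26 FPKM in those of mouse 3. Both libraries of mouse 3 were below all 6 of mice 1 and 2. The mean was 10.6 ± 1.70 FPKM, the highest of the 9 genes.

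Chrna4, its main α partner, spans 181022311 to 181039177 of chromosome 2 (minus strand) with 1 transcript of 4437 nucleotides (NM_015730). It was at 9.02, 9.23 and 9.55 FPKM in mouse 1, at 8.30, 9.20 and 10.3 FPKM in mouse 2 and at 7.51 and 6.04 FPKM in mouse 3. As with Chrnb2, both libraries of mouse 3 were below all the others. The mean was 8.44 ± 1.44 FPKM. Chrnb2 was above Chrna4 in 8 of 8 libraries, by 1.25-fold in the means, but the ranges of their mouse means overlapped.

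The ratio of Chrna4 to Chrnb2 was steadier than either gene. It was 0.798 ± 0.0322, between 0.730 in mouse 3 library 2 and 0.860 in mouse 2 library 3, with a coefficient of variation (CV) over the 8 libraries of 5.45%. The CV of the level was 14.4% for Chrnb2 and 15.6% for Chrna4. Over the 8 libraries the log2(FPKM + 1) values of the pair had a Pearson's r of 0.948, and Chrnb2 ranked 341 of 13000 genes by its likeness to Chrna4. The libraries share mice, depth and the trend with transcript length, and this r is given as a description.

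**Figure D2:**
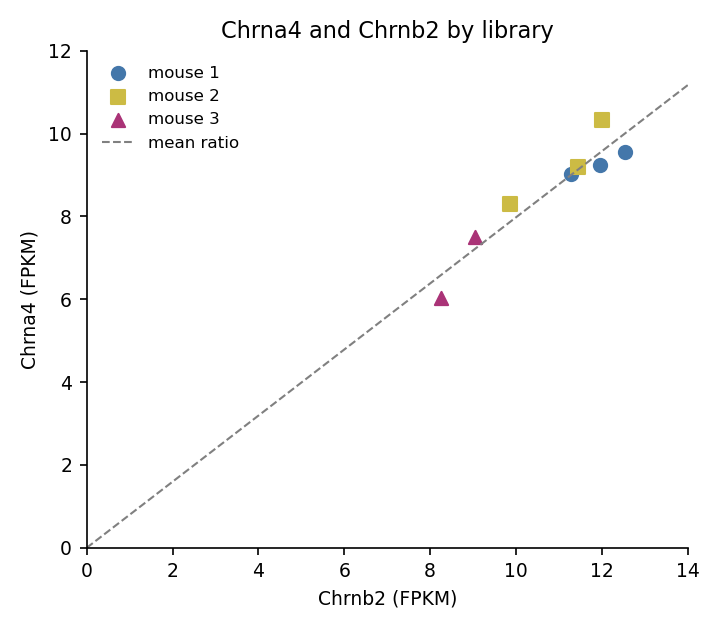
Chrna4 against Chrnb2 in FPKM, both axes from 0, with 1 point per library and the mean ratio as a dashed line. The 8 libraries lie close to the line, at ratios from 0.730 to 0.860, and the 2 libraries of mouse 3 lie lowest on both axes.

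Chrna7, the subunit of the fast, calcium-permeable receptors, spans 63098692 to 63212526 of chromosome 7 (minus strand) with 1 transcript of 2091 nucleotides (NM_007390). It was at 4.30, 4.27 and 5.22 FPKM in mouse 1, at 2.55, 5.57 and 4.61 FPKM in mouse 2 and at 4.96 and 4.0 FPKM in mouse 3. The lowest and the highest library were both of mouse 2, and the 3 mice overlapped. The mean was 4.44 ± 0.180 FPKM, 1.90-fold below Chrna4 and 5.89-fold above Chrna3. Each of these neighbours was in the same order in 8 of 8 libraries, with mouse means that did not overlap. The r of log2(FPKM + 1) over the 8 libraries was 0.270 between Chrna7 and Chrna4 and 0.367 between Chrna7 and Chrnb2.

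Chrna3, the ganglionic α subunit, spans 55011343 to 55026559 of chromosome 9 (minus strand; NM_145129). It was at 0.747, 0.789 and 1.19 FPKM in mouse 1, at 0.847, 0.881 and 0.602 FPKM in mouse 2, and at 0.342 and 0.810 FPKM in mouse 3. The highest library was of mouse 1 and the lowest of mouse 3, and the 3 mice overlapped. The mean was 0.754 ± 0.167 FPKM.

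Chrnb4, the β partner of α3, lies 1596 bases further along chromosome 9, at 55028156 to 55048544 (minus strand; NM_148944). It was at 0.715, 0.608 and 0.600 FPKM in mouse 1, at 0.329, 0.463 and 0.552 FPKM in mouse 2 and at 0.311 and 0.360 FPKM in mouse 3. Mouse 1 was above the others in all its libraries, and mice 2 and 3 overlapped. The mean was 0.475 ± 0.155 FPKM. The ratio of Chrna3 to Chrnb4 was 1.66 ± 0.209 over the mice, and it ran from 1.05 to 2.58 over the libraries.

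Chrna5, the accessory subunit, spans 54980880 to 55007779 of chromosome 9 on the plus strand (NM_176844), beside Chrna3. It was at 1.04, 0.536 and 0.638 FPKM in mouse 1, at 0.524, 0.755 and 0.587 FPKM in mouse 2, and at 0.506 and 0.660 FPKM in mouse 3. Mouse 1 library 1 stood above the other 7 libraries, and the mice overlapped. The mean was 0.648 ± 0.0807 FPKM, and the ratio of Chrna5 to Chrna3 was 0.945 ± 0.178, from 0.537 to 1.48 over the libraries. In the deposited models Chrna5 and Chrna3 end 3563 bases apart, while the RefSeq loci on GRCm38.p6 overlap by 1304 bases on opposite strands. Whether reads were assigned by strand is not given in the sources used here, so reads of the 2 genes in such an overlap could not be told apart without it. Of that overlap, only the stretch from 55011343 to 55011420 lies inside a deposited model, that of Chrna3. The 3 genes of this cluster together were at 1.88 ± 0.397 FPKM.

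Chrna6, the α subunit of dopamine neuron receptors, spans 27403212 to 27413944 of chromosome 8 (minus strand; NM_021369). It was at 0.557, 0.853 and 0.620 FPKM in mouse 1, at 0.524, 0.790 and 0.676 FPKM in mouse 2 and at 0.818 and 0.618 FPKM in mouse 3. The 3 mice overlapped, and their means were close, at 0.686 ± 0.0286 FPKM. Its neighbour Chrnb3, 3481 bases away at 27368711 to 27399730 (plus strand), encodes the accessory β3 subunit. Summed over its 2 transcripts, Chrnb3 was at 0.615, 0.678 and 0.734 FPKM in mouse 1, at 0.461, 0.472 and 0.660 FPKM in mouse 2 and at 0.600 and 0.348 FPKM in mouse 3. The mice overlapped here too. The mean was 0.560 ± 0.104 FPKM, the ratio of Chrna6 to Chrnb3 was 1.28 ± 0.283, and the pair together was at 1.25 ± 0.0921 FPKM.

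Chrna2 was the lowest of the 9 genes. It spans 66140960 to 66152948 of chromosome 14 (plus strand; NM_144803), and was at 0.203, 0.204 and 0.126 FPKM in mouse 1, at 0.159, 0.287 and 0.142 FPKM in mouse 2, and at 0.171 and 0.146 FPKM in mouse 3. The mean was 0.178 ± 0.0186 FPKM, 2.67-fold below Chrnb4, and Chrnb4 was above it in 8 of 8 libraries. In the order Chrna3, Chrna6, Chrna5, Chrnb3, Chrnb4, neighbours were not resolved. They differed by 1.06-fold to 1.18-fold, held the same order in 4 to 6 of 8 libraries, and differed by less than the larger SD between mice. The ends of that order were further apart, since Chrna3 was above Chrnb4 in 8 of 8 libraries, though the ranges of their mouse means overlapped.

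The fragments behind these values set what could be seen. The table holds no counts, but the deposited upper bounds imply a number of fragments if they stand 2 SD of a Poisson count above the value. For single-transcript genes, 79.2% of 13736 values with 1.5 to 10 implied fragments came out within 0.05 of a whole number, against 10% for values spread evenly. Of 14895 values with 10 to 50 implied fragments 39.2% did, and larger ones were not checked in this way. On this reading Chrna4 had a median of 510 fragments per library and Chrna7 123, where their level, length and library depth give 512 and 129. That depth was itself taken from the bounds of single-transcript genes on the same reading. The likeness shows these 2 genes to be like the typical gene and is not an independent check of the reading. Chrna3 had 31.2, Chrna6 27.4, Chrnb4 23.6 and Chrna5 22.8. Chrna2 rested on 7.50, from 6 to 13 fragments. For Chrnb2 the reading did not hold, because its bounds imply 585 fragments while its level, length and depth give 775.

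The spread between libraries can be set beside the CV that counting alone would give. For Chrna4 it was 15.6% against 4.43%, and for Chrna7 20.9% against 9.02%. For Chrna3 it was 31.1% against 17.9%, for Chrnb4 30.4% against 20.6% and for Chrna5 26.9% against 20.9%. For Chrna6 it was 18.2% against 19.1% and for Chrna2 28.6% against 36.5%, so that the differences between libraries of these 2 genes were not detectable at this depth. Of the 28 pairs of libraries, the deposited bounds did not overlap in 13 pairs for Chrnb2, 12 for Chrna4, 6 for Chrna7 and 5 for Chrna3. They overlapped in all 28 pairs for Chrna6, Chrna5, Chrnb4 and Chrna2. On the reading above, these figures cover counting error only, except for Chrnb2. Its bounds were wider than counting alone would give, so its 13 pairs are not directly comparable with those of the other genes.

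Chrnb3 was the only one of the 9 genes with more than 1 transcript in the table. NM_173212 carries a coding exon of 45 nucleotides, the third of 6, at chr8:27386782-27386826 of GRCm38, and NM_027454 lacks it. The exon is a whole 15 codons, so that the reading frame is kept without it. The sequences show the junction in both transcripts, with 20 nucleotides of each neighbouring exon in lower case and the exon in capitals.
NM_173212: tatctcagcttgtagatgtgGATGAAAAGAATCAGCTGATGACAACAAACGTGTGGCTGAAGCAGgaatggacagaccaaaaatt
NM_027454: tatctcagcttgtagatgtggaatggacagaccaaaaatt

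The transcript with the exon held nearly all of the gene's FPKM in 6 libraries, the lowest share being 99.9%, and 86.0% in mouse 1 library 2. In mouse 2 library 2 it was at 0.00156 FPKM, 0.330% of the gene, while NM_027454 was at 0.470 FPKM. The deposited bounds of NM_027454 there, 0.289 to 0.652 FPKM, lay above its values in the other 7 libraries, which were at most 0.0952 FPKM. The value corresponds to 26.8 implied fragments over a transcript of 4544 nucleotides. The division of fragments between the transcripts was estimated by the authors' software and can turn on few reads at the exon. No other library of mouse 2 held NM_027454 above 0.001 FPKM, and the gene's sum in that library, 0.472 FPKM, lay within the range of the others.

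**Figure D3:**
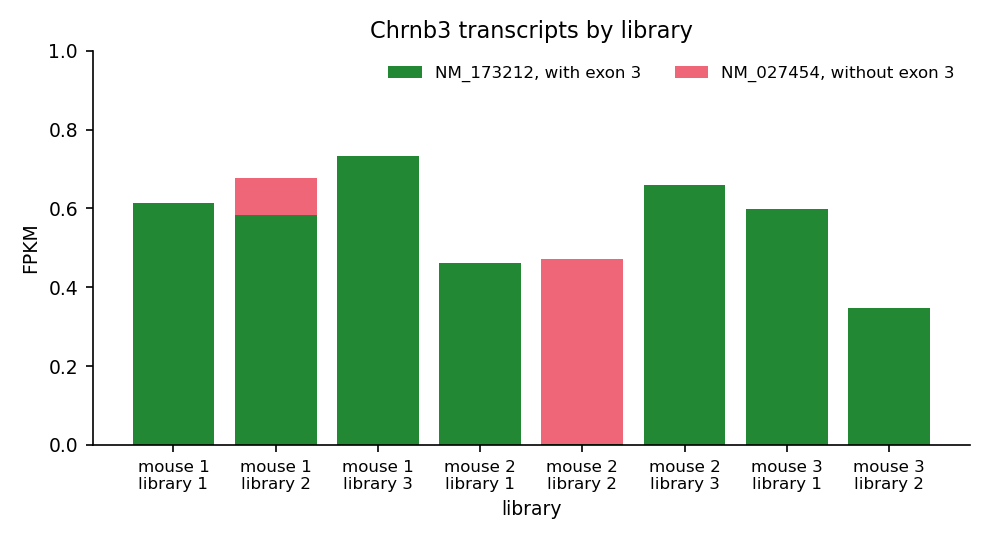
FPKM of the 2 Chrnb3 transcripts in each library as stacked bars from 0, with NM_173212 (with the 45-nucleotide exon) in green and NM_027454 (without it) in red. The bar of mouse 2 library 2 is NM_027454 at 0.470 FPKM, while the other bars are mainly or wholly NM_173212.

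The remaining nicotinic subunits, known from muscle and the cochlea, were low. Chrna1, the muscle α subunit, was at 0.449 ± 0.173 FPKM, and Chrnb1, its β partner, at 0.559 ± 0.114 FPKM. Chrna10, which pairs with α9 in cochlear hair cells, was at 0.213 ± 0.0280 FPKM. Chrnd, Chrng and Chrna9 were listed at 0 in all 8 libraries, and Chrne was listed at 0 in 6 and at 0.0991 and 0.152 FPKM in the other 2. All 7 genes together were at 1.26 ± 0.0803 FPKM, and 0 of the 7 reached 1 FPKM. Of 3 skeletal muscle markers, Acta1 was at 3.66 ± 2.10 FPKM, Ckm at 0 to 0.116 FPKM and Myh4 at 0.0243 to 0.0918 FPKM.

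Nicotinic genes belong to the Cys-loop family of channels together with GABA-A, glycine and 5-HT3 receptors. The 14 GABA-A subunits listed, which form the main inhibitory receptors of the brain, were together at 394 ± 3.93 FPKM, 15.1 ± 2.28 times the nicotinic total. The 5 glycine receptor subunits were at 94.0 ± 9.10 FPKM, 3.62 ± 0.899 times the nicotinic total, of which Glrb alone was 78.4 ± 7.38 FPKM. The 2 subunits of 5-HT3, the serotonin-gated channel, were at 1.85 ± 0.181 FPKM, and the nicotinic total was 15 ± 0.762 times as high. The nicotinic total was 29.6 FPKM in mouse 1, 27.9 in mouse 2 and 22.7 in mouse 3, with libraries from 21.2 to 31.2 FPKM, while the GABA-A total was at 371 to 425 FPKM. In the comparison of the mice described next, 2 of 13 GABA-A genes tested were called (Gabrb2 lower and Gabrg1 higher in mouse 3), and 0 of 4 glycine and 0 of 1 5-HT3 genes were (1 and 0 at an unadjusted p under 0.05, limma). Of all genes 26.9% were called. Gabrb2, with a transcript of 7552 nucleotides, had a difference of −0.52, and with the trend on transcript length removed it was −0.29 and not called (adjusted p = 0.0580, limma). Gabrg1 was not called in TPM or without mouse 3 library 2 (0.186 and 0.198).

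**Figure D4:**
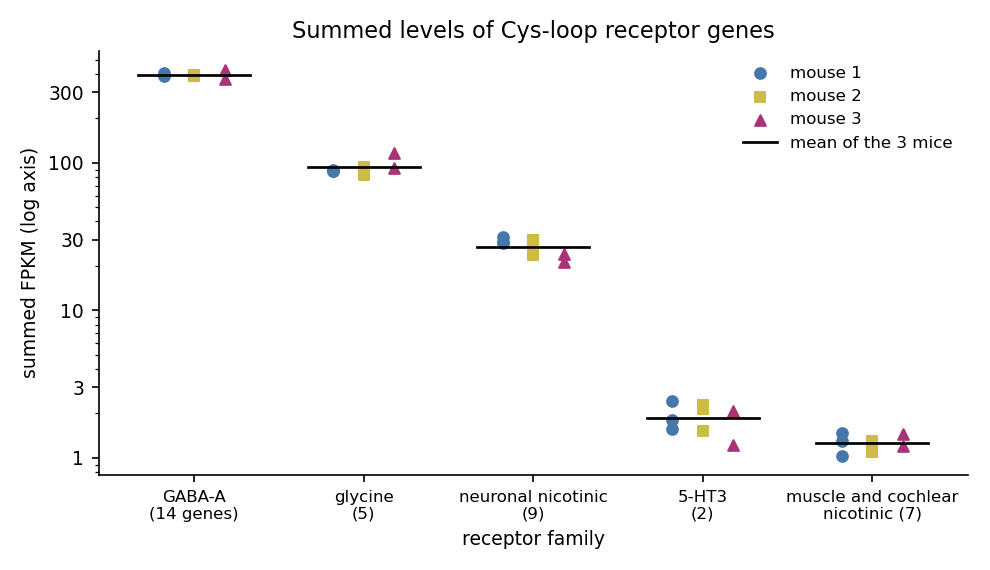
Summed FPKM (log axis) of the listed genes of 5 Cys-loop receptor groups in the 8 libraries, by mouse, with the mean of the 3 mice as a line. The nicotinic total, at 21.2 to 31.2 FPKM, lies below the glycine total in every library and above the 5-HT3 total in every library.

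Whether the 9 genes differed between the mice was asked with a moderated F-test (limma) on log2(FPKM + 1). It was run over all 13001 genes whose mean reached 1 FPKM, p-values were adjusted by Benjamini-Hochberg, and genes were called at an adjusted p under 0.05. The test takes libraries as replicates of a mouse and describes these 3 mice only. Its p-value is for any difference among the 3 mice. Lower or higher in mouse 3 gives the sign of its difference from the mean of mice 1 and 2. That difference was not tested by itself, here or in the other lists. Chrna4 and Chrnb2 were called, with lower values in mouse 3, and Chrna7 was not called. These are 2 of the 3 nicotinic genes tested, and 26.9% of all genes tested were called, 11.9% as lower in mouse 3, so that calls were common among genes at large. The log2 difference of mouse 3 from the mean of mice 1 and 2 was −0.41 for Chrna4, with both its libraries below all 6 others. The adjusted p of Chrna4 between the 3 mice was 0.0394 (limma F-test with Benjamini-Hochberg). The difference was −0.37 for Chrnb2 (adjusted p = 0.0303, limma F-test), again with 2 of 2 libraries below, and 0.04 for Chrna7 (adjusted p = 0.849, limma F-test). The median difference over all genes tested was 0.02.

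With a minimum of 0.1 FPKM, all 9 genes could be tested. There 1 of the 9, Chrnb2, was called (adjusted p = 0.0395, limma), against 19.2% of 16392 genes (8.32% called as lower and 10.9% as higher in mouse 3), and Chrna4 missed the threshold (adjusted p = 0.0523). Chrnb4 had a difference of −0.21 (adjusted p = 0.113), Chrnb3 of −0.12 (0.393) and Chrna3 of −0.23 (0.409), all by limma. Those of Chrna5, Chrna2 and Chrna6 were −0.08, −0.03 and 0.04, with adjusted p from 0.741 to 0.950. On log2(FPKM + 1) changes of genes this low are understated. The sizes of these differences can therefore not be ranked against those of Chrna4 and Chrnb2.

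The Chrna4 and Chrnb2 calls were close to the threshold, and each was lost in several fits that left out 1 library. Without mouse 3 library 2, which leaves 1 library of mouse 3 that is assumed to vary like the others, neither gene was called. The log2 differences there were −0.27 for Chrna4 and −0.32 for Chrnb2, and calls over all genes were the fewest of these fits. Both calls were also lost without mouse 1 library 1 (0.0723 and 0.0532), library 2 (0.0809 and 0.0744) or library 3 (0.0854 and 0.0805) and without mouse 2 library 2 (0.0684 and 0.0533), each pair being the adjusted p (limma) of Chrna4 and Chrnb2. That of Chrna4 was lost without mouse 2 library 3 (0.0506). Calls over all genes fell in these fits too, from 3496 of 13001 with all libraries. They were 2215 of 12997, 2083 of 12997 and 1969 of 12987 without mouse 1 library 1, 2 and 3. Without mouse 2 library 2 and library 3 they were 2649 of 12992 and 3101 of 12991. In these fits both genes had an unadjusted p under 0.05, except without mouse 3 library 2, where 0 of the 3 had. Without a library of mouse 1 or 2 the differences moved little, from −0.37 to −0.44 for Chrna4 and from −0.35 to −0.41 for Chrnb2. Both calls held without mouse 2 library 1 or mouse 3 library 1.

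Transcript length moved with this result. Chrnb2 and Chrna4 have transcripts of 5384 and 4437 nucleotides and Chrna7 of 2091, and long transcripts were low in mouse 3. With the trend of each library on transcript length removed, the differences were −0.30 for Chrna4 (adjusted p = 0.0534, limma) and −0.22 for Chrnb2 (adjusted p = 0.0795), and that of Chrna7 was −0.07, while 22.2% of all genes were called. Cell type markers moved as well: Rbfox3 and Syt1, of 3 neuronal markers, were lower in mouse 3, Mbp, of 2 oligodendrocyte markers, and 3 of 3 astrocyte markers were higher, and their part in the result was not tested. Of 3 markers each, 1 was called for microglia (Cx3cr1, higher) and 1 for choroid plexus (Kl, lower). For endothelium 0 of 3 were called by limma (1 at an unadjusted p under 0.05). Of the genes listed for pituitary and skeletal muscle, 1 each was tested, Pomc and Acta1, and 0 were called (0 unadjusted). Where in the brain samples their RNA came from was not tested. On the TPM scale the median difference of all genes was −0.24, and those of Chrna4 and Chrnb2 were −0.72 and −0.69 (adjusted p = 0.00350 and 0.00195, limma). There 38.3% of all 14770 genes tested were called, 32.7% as lower in mouse 3. Relative to that median the differences of Chrna4 and Chrnb2 were −0.48 and −0.44. Of the glial markers called above, Mbp and Gfap were also called as higher in TPM. Aqp4, Aldh1l1 and Cx3cr1 were not (adjusted p = 0.360, 0.146 and 0.748, limma). Relative to the median, their differences were 0.40, 0.46 and 0.33. The neuronal markers Rbfox3, Syt1 and Snap25 were all called as lower in TPM. Calls lower in mouse 3 made up 85.4% of all calls on that scale, 44.1% on the FPKM scale and 33.7% with the library number as a block.

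By the likeness of the log2(FPKM + 1) profile over the 8 libraries, the genes nearest to Chrnb2 among 13000 were Kcnc1 (Pearson's r = 0.994), which encodes a potassium channel of fast-spiking neurons, Fbxo45 (0.993) and 2810403A07Rik (0.993). Their transcripts are 2999 to 4336 nucleotides long. With 8 libraries of 3 mice this is a description.

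Of 13 genes that assemble, traffic or modulate nicotinic receptors, all were in the table and 12 were tested, and 5 differed between the mice, 3 higher and 2 lower in mouse 3. Of all genes tested 26.9% were called, 15% as higher and 11.9% as lower in mouse 3. The median difference of the list was 0.16 against 0.02 for all genes. Tmem35a, listed by its older symbol Tmem35 and known as NACHO, a chaperone needed for α7 receptors, was at 30.5 ± 6.09 FPKM and higher in mouse 3 by 0.46 (adjusted p = 0.0376, limma). Lypd6, a lynx-type modulator of nicotinic receptors, was at 8.06 ± 1.48 FPKM and higher by 0.39 (adjusted p = 0.0427), and Ly6g6e was at 1.64 ± 0.661 FPKM and higher by 0.55 (adjusted p = 0.0454). Vsnl1, a neuronal calcium sensor that raises surface α4β2 receptors, was at 249 ± 37.6 FPKM and lower by a log2 difference of −0.36 (adjusted p = 0.0234). Ubqln1, a ubiquitin-like protein, was at 44.2 ± 5.37 FPKM and lower by −0.31 (adjusted p = 0.0306, limma).

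The other modulators did not pass this test. Ric3, a chaperone of α7 assembly, was at 22.1 ± 1.82 FPKM (adjusted p = 0.167, limma), and Lynx1, a GPI-anchored brake on nicotinic receptors, was at 77.2 ± 3.71 FPKM (0.307). The remaining tested genes were Ly6h at 57.6 ± 6.01, Ly6e at 51.5 ± 3.74, Lypd1 at 26.1 ± 2.91, Lypd6b at 4.96 ± 0.879 and Ywhah at 445 ± 12.1 FPKM. Rapsn, which clusters muscle receptors, was at 0.167 ± 0.0118 FPKM and was not tested. All 12 tested genes except Ly6g6e were above the mean of Chrna7. On the TPM scale Tmem35a, Lypd6 and Ly6g6e kept a difference above 0 but missed the threshold (adjusted p = 0.212, 0.414 and 0.0566, limma). Relative to the median of all genes on that scale, their differences were 0.41, 0.38 and 0.73. With the length trend removed Ly6g6e was not called (0.272) and Ric3 was, as higher (0.34, adjusted p = 0.0326, limma). Ubqln1 was not called with its highest transcript only (0.454) or with the library number as a block (0.0572). Of the 12, 0 were called without mouse 1 library 1, where 6 had an unadjusted p under 0.05 (limma) and 2215 of all 12997 genes were called. The calls numbered 1 without mouse 1 library 2 or library 3 (2083 of 12997 and 1969 of 12987 over all genes). They numbered 2 without mouse 2 library 3 (3101 of 12991), 3 without mouse 2 library 2 (2649 of 12992) and 4 without mouse 2 library 1 (4131 of 13013). Without mouse 3 library 2, which leaves 1 library of that mouse, the calls were lost. The 5 genes called above kept the sign of their differences there, from −0.45 for Vsnl1 to 0.56 for Ly6g6e.

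Genes that make, load, take up and break down acetylcholine were read beside the receptors. Chat, the synthesising enzyme, was at 1.04 ± 0.163 FPKM, Slc18a3, the vesicular transporter, at 1.15 ± 0.294 FPKM and Slc5a7, the choline transporter, at 2.26 ± 0.347 FPKM. Ache, the esterase that ends the signal, was higher, at 27.0 ± 2.54 FPKM, and Bche was at 1.20 ± 0.118 FPKM. Of these 5, 0 were called, with adjusted p (limma) from 0.0731 for Slc18a3 to 0.586 for Bche, and the median difference was −0.20. At an unadjusted p under 0.05, 1 of the 5 passed. On the TPM scale 3 of the 5, Slc18a3, Slc5a7 and Ache, were called as lower in mouse 3 (adjusted p = 0.0110, 0.0105 and 0.0111, limma). With 32.7% of all genes called as lower there, their differences relative to the median of all genes were −0.43, −0.37 and −0.22, against −0.33, −0.30 and −0.19 on the FPKM scale.

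Markers of regions where the rarer subunits are known were read in the same libraries. Of 4 medial habenula markers, Tac2 was at 7.57 ± 0.460, Nwd2 at 4.70 ± 1.42, Gpr151 at 0.893 ± 0.232 and Pou4f1 at 0.346 ± 0.0590 FPKM. Nwd2, with a transcript of 8536 nucleotides, was lower in mouse 3 by a log2 difference of −0.68 (adjusted p = 0.00675, limma), and Tac2 was not called (0.628). With the length trend removed Tac2 was called as lower (−0.50, adjusted p = 0.00785, limma) and the difference of Nwd2 was −0.42 (0.0144). Without mouse 3 library 2 Nwd2 was not called (0.0693). Of 4 dopamine neuron markers 0 were called by limma, and 0 had an unadjusted p under 0.05, with Th at 6.70 ± 0.545, Ddc at 6.74 ± 0.680, Slc18a2 at 3.37 ± 0.352 and Slc6a3 at 3.10 ± 0.329 FPKM. Prph and Dbh were listed for autonomic and peripheral neurons, where Chrna3 and Chrnb4 are also known. They were at 1.65 ± 0.0324 and 1.13 ± 0.0611 FPKM. The libraries are of whole brain, and these levels do not show which cells the RNA came from. Of the 2 tested, 0 were called by limma, and 0 had an unadjusted p under 0.05.

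**Figure D5:**
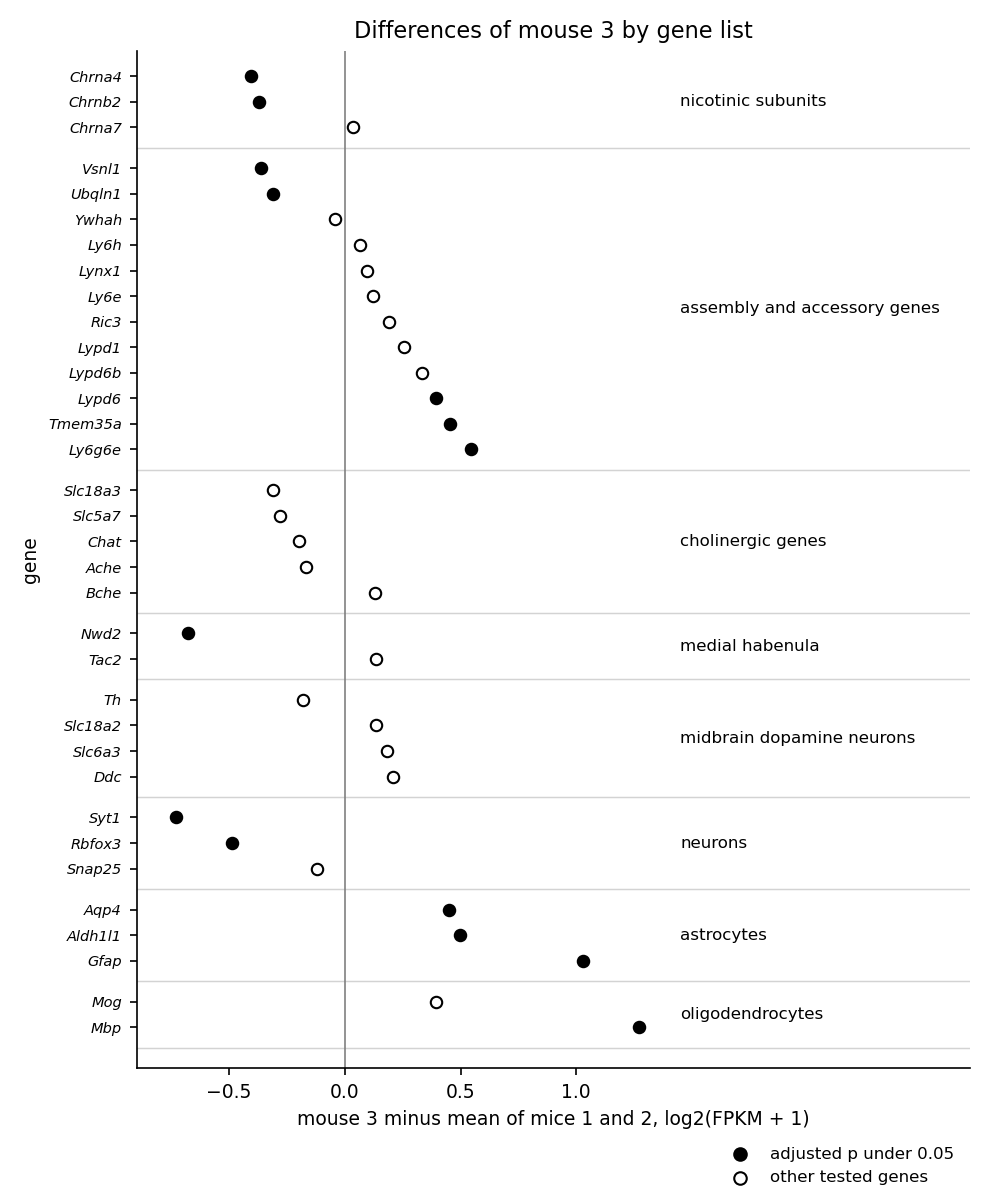
Log2(FPKM + 1) of mouse 3 minus the mean of mice 1 and 2 for the tested genes of 8 lists. Filled genes passed the limma F-test between the 3 mice. Chrna4 and Chrnb2 lie at −0.41 and −0.37 and Chrna7 at 0.04, and the accessory genes run from −0.36 for Vsnl1 to 0.55 for Ly6g6e.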

How the data were processed

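Whole-brain bulk RNA-seq of 8 libraries from 3 mice was analysed, grouped by the mouse named in the labels. Total RNA was taken with a column kit, and libraries with an mRNA kit. The deposited FPKM values were estimated by the authors per RefSeq transcript, with lower and upper bounds. The deposited coverage, a signal of read depth per base, is not scaled for library size and gave the gigabases per library. The submitters' processing notes name TopHat, Cufflinks and the build mm10, with no versions. Strand setting and read length are not given in the sources used here. FPKM depend on the total of all fragments, and values of single transcripts on how shared reads were divided.

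FPKM of a gene's transcripts were summed, then averaged per mouse and over mice. Status was FAIL for 8 values, 0 of them in listed genes. Of 88 listed genes, 87 were found by symbol and 1 by an older symbol. Other genes of the lists are not reported here. Differences between mice were tested with limma 3.58.1 (R 4.3.3) with trend on log2(FPKM + 1), so that changes of low genes are understated. Genes had a mean of at least 1 FPKM, and p-values were adjusted over all of them by Benjamini-Hochberg. No count test was run, because the values are FPKM. The fit was tested on simulated data. Implied fragments are inferred from the deposited bounds, a step added after the values were seen. Table starts were counted from 0 and 1 was added.

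The members and gene lists were chosen with earlier results of these data known. Named were the 9 genes, the genes of the fixed lists and the 3 genes most like Chrnb2, the tested member with the widest range of mouse means. Alternatives were a pseudocount of 0.1, a minimum of 0.1 FPKM or none, TPM, removal of the length trend (lowess span 0.3), the highest transcript only, the library number as a block and each library left out. Fits with a minimum of 0.1 FPKM combined with TPM, the length trend or a library left out were added after the data were seen.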

Additional observations from a re-analysis of the deposited data

Results flagged for a closer look

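Chrna5 was at 1.04 FPKM in mouse 1 library 1 while the next highest library was at 0.755 FPKM. That gap was 0.534 of the range of the 8 libraries, above the limit of 0.526 in Dixon's test. The Chrnb3 transcript NM_027454 was at 0.470 FPKM in mouse 2 library 2 and at most 0.0952 FPKM elsewhere, a gap of 0.798 of the range. These are 2 of 16 genes, transcripts and ratios tested in this way. For independent, normally spread values chance places about 1 in 20 such groups above the limit. The libraries here are grouped by mouse, and NM_027454 was almost absent from most of them, so that rate need not hold.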

How the results depend on the processing

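The order of the 9 genes by level was the same with TPM, with the highest transcript only, with the median over libraries of a mouse and with all 8 libraries averaged, and leaving out each library left 7 to 9 of the 9 genes at their rank. The total of the 9 genes was 78.4 on the TPM scale, which rescales each library separately, with 91.3, 86.4 and 57.4 in mice 1, 2 and 3. The 2 of 3 nicotinic genes called became 1 of 9 with a minimum of 0.1 FPKM, 0 of 9 with no minimum, 0 of 3 with the length trend removed (0 of 9 with a minimum of 0.1 FPKM), 1 of 3 with the highest transcript only, and 0 to 2 with each library left out, under either minimum. At an unadjusted p under 0.05 (limma), 3 of 9 passed with no minimum and 2 with the length trend removed. Chrnb4 was called only on the TPM scale with a minimum of 0.1 FPKM (adjusted p = 0.0336, limma). Genes called between the mice numbered 3496, 5653 with TPM, and 372 to 4131 with each library left out, the fewest without mouse 3 library 2. The 6 calls among accessory, cholinergic and regional genes became 3 with no minimum, 3 with the highest transcript only, 8 of 27 with TPM, 7 of 23 with the length trend removed and 0 to 5 with each library left out. Of all genes tested, 2441 of 19296 were called with no minimum and 2719 of 12899 with the highest transcript only. The shares of all genes called were 38.3% with TPM and 22.2% with the length trend removed. Lower minimums add genes to the adjustment, and the cause was not tested for the other changes. Depth limits the 6 low genes.

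With the library number as a replicate block, 0 of 3 nicotinic genes were called (adjusted p = 0.0874 for Chrna4 and 0.0591 for Chrnb2, limma), 2 had an unadjusted p under 0.05, and 3385 genes were called. Same-numbered libraries of different mice had deviations correlated at 0.00276 to 0.107 over 7 pairs. Of the 8 libraries, 5 correlated best with their own number in another mouse. These values do not settle whether the numbers pair the libraries, and the main fit was run without pairing.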
